A study of Homo sapiens with 6 samples.

Results

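Mirtrons are microRNAs whose hairpin is a complete short intron. The 10 mature mirtron products described here were selected by name from the 2588 mature human miRNAs of a miRNA sequencing table. The rule used no measured value, but earlier results of these data were known when it was chosen. They come from 6 precursors: both arms of miR-877, miR-1224, miR-1225 and miR-1226, and the 3p arms of miR-1229 and miR-1236. Only miR-1226-3p and miR-877-5p were read at more than a trace, and neither passed the test between the groups.

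Most microRNA hairpins are cut out of a longer primary transcript by the nuclear enzyme Drosha and then trimmed to a short duplex by Dicer in the cytoplasm. A mirtron leaves out the Drosha step: the spliceosome removes the intron, the resulting lariat is opened by the debranching enzyme, and the linear intron folds into a hairpin that Dicer can cut directly. The 5p arm then begins at the splice donor and the 3p arm ends at the splice acceptor. One arm of the duplex is usually retained by an Argonaute protein as the active miRNA, and it recognises target mRNAs mainly through its seed, bases 2 to 8.

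The libraries were made from Huh7, a human hepatocellular carcinoma line, 48 h after transfection with Lipofectamine 2000. One group of 3 samples received a plasmid (PLC5-CIR backbone) that overexpresses the circular RNA hsa_circ_0098181, and the other group of 3 received the control plasmid. The comparison asked which miRNAs differ when the circular RNA is overexpressed. Nothing in the labels says whether replicates were separate cultures, so that the p-values measure the spread between these samples, which may be technical.

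The libraries held between 7144798 and 10786295 miRNA counts, and 1366 miRNAs had at least 1 count. Control replicate 3 stood apart: its median absolute log2 difference from the other controls was 0.228 and 0.205, against 0.0796 between those controls and 0.103 to 0.120 between overexpression samples. Its deviation from the mean of the other controls followed the GC content of the miRNA, with a Spearman's rho of 0.33 across 493 miRNAs, which share the same libraries. Among these, the 95 miRNAs with at least 59% GC had a median log2 deviation of 0.18 and the others of -0.055. The cut lies just under the lowest GC content of the 10 mirtron products (59.1%), so that all 10 fall in that range by the choice of cut. Of the 10, only the 2 that passed the filter on low counts used below are among the 493. The fold changes printed for single mirtron products are therefore given with and without this library. The hepatocyte markers miR-122-5p, miR-192-5p and miR-194-5p together took 346700 to 383951 TPM (counts per 1000000 counts of the library, uncorrected for length) in the 6 libraries. The summed markers of other cell types reached 149 TPM in neuronal, 99.5 TPM in stromal, 18.7 TPM in blood and 2.13 TPM in muscle miRNAs at most, and none of the listed markers was at 0 in all libraries. The blood sum did not overlap between the groups in TPM (11.6 to 13.2 TPM with overexpression, 15.8 to 18.7 TPM in the controls). Nor did the stromal sum (81.6 to 88.7 and 90.5 to 99.5 TPM). TPM scale by library size alone, and the median log2 fold change over all 552 miRNAs tested was itself below 0 on that scale (-0.11). With the TMM factors used in the tests below it was 0.0038. Whether the 2 sums separate on the TMM scale was not tested, and neither was their part in the values below.

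The mature sequences below are shown because their ends mark the splice sites and their seeds define the targets they could reach. They are given 5′ to 3′ as in RefSeq (GRCh38.p14), with the seed in capitals, and all 10 were matched by name.
hsa-miR-877-5p: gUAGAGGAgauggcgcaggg
hsa-miR-877-3p: uCCUCUUCucccuccucccag
hsa-miR-1224-5p: gUGAGGACucgggaggugg
hsa-miR-1224-3p: cCCCACCUccucucuccucag
hsa-miR-1225-5p: gUGGGUACggcccagugggggg
hsa-miR-1225-3p: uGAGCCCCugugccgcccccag
hsa-miR-1226-5p: gUGAGGGCaugcaggccuggaugggg
hsa-miR-1226-3p: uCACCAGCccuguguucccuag
hsa-miR-1229-3p: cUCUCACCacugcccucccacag
hsa-miR-1236-3p: cCUCUUCCccuugucucuccag
All 4 of the 5p products begin with gu, the donor dinucleotide, whereas 44 of the 779 5p miRNAs in the table with a sequence do so (5.65%). All 6 of the 3p products end with ag, the acceptor dinucleotide, against 183 of 795 3p miRNAs (23.0%). Both ends follow from the choice of mirtrons as members, so that these shares only describe the products. No seed was shared, among the 10 or with any other miRNA of the table that has a sequence. The products were rich in G and C, from 59.1% to 77.3% with a median of 65.9%, and all 10 lay above the median of 52.2% over 2281 miRNAs with a sequence. The longest stretch in common with another miRNA was 9 or 10 bases for 9 of the 10 products. It was 13 bases for miR-877-3p, shared with miR-7111-3p, which had 12 counts in all.

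In GENCODE release 29 (GRCh38), the RefSeq hairpin of each of the 6 precursors coincided base for base with an annotated intron that starts with GU and ends with AG. The 5p members started at the first base of their intron and the 3p members ended at its last base, 0 bases from the splice sites. MIR1226 (ENSG00000221585.1, chr3:47849555-47849629, plus strand) is intron 21 of DHX30, which encodes an RNA helicase. MIR877 (ENSG00000216101.3, chr6:30584332-30584417, plus strand) is intron 13 of ABCF1, an ATP-binding cassette protein that takes part in translation initiation. These are the precursors of the 2 well-read products.

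The other 4 introns lie in genes of unrelated kinds. MIR1224 (ENSG00000221120.1, chr3:184241405-184241489, plus strand) is intron 16 of VWA5B2, which encodes a protein with a von Willebrand factor A domain. MIR1225 (ENSG00000221656.1, chr16:2090195-2090284, minus strand) is intron 45 of PKD1, the polycystin-1 gene mutated in dominant polycystic kidney disease. MIR1229 (ENSG00000221394.1, chr5:179798278-179798346, minus strand) is intron 13 of MGAT4B, a glycosyltransferase that branches N-glycans. MIR1236 (ENSG00000284446.1, chr6:31956839-31956940, minus strand) is intron 3 of NELFE, a subunit of the negative elongation factor that holds RNA polymerase II near promoters. Intron numbers follow the first listed transcript (DHX30-201, ABCF1-201, VWA5B2-201, PKD1-201, MGAT4B-201 and NELFE-201). The introns were 69 bases (MGAT4B) to 102 bases (NELFE) long, and their GC content ran from 54.9% (NELFE) to 74.4% (PKD1). Transcripts of protein-coding genes were counted where an intron spanned the hairpin, or all but a few bases of it. All of these used the same ends for 5 of the precursors, and 9 of 10 did for MIR1229.

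**Figure D1:**
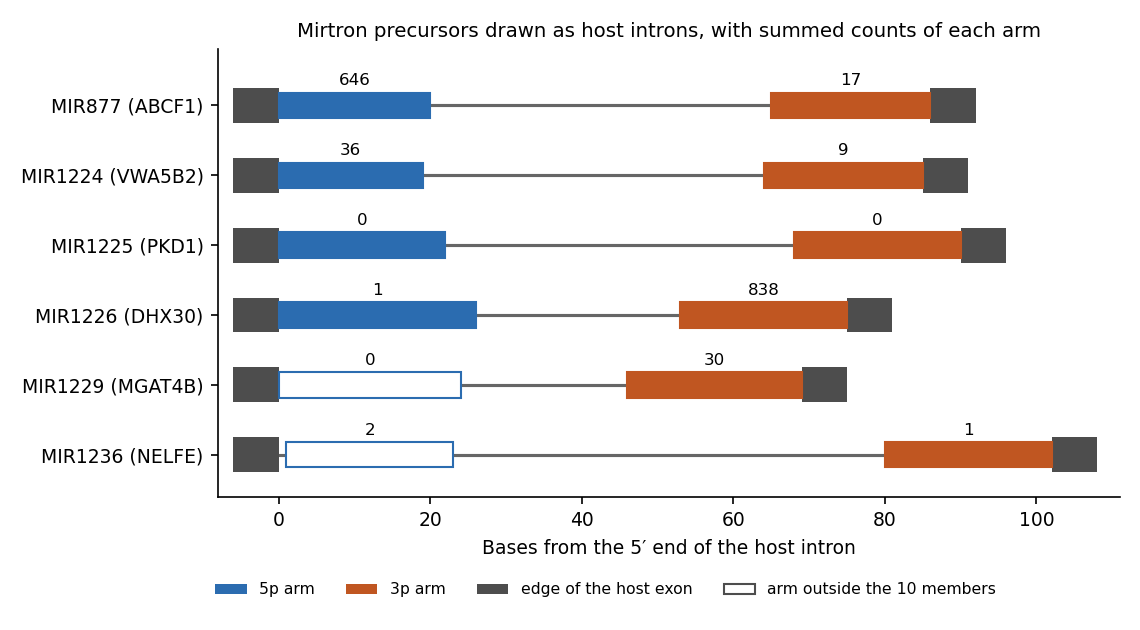
Each of the 6 host introns is drawn to scale in bases from its 5′ end, with the edges of the flanking exons as grey blocks of arbitrary width, the 5p arm in blue, the 3p arm in orange and the 2 arms outside the 10 members drawn as outlines. The number over each arm is its summed count in the 6 libraries: 838 on the 3p arm of miR-1226 and 646 on the 5p arm of miR-877 stand far above every other arm, of which the highest reached 36.

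The 10 products were a very small part of the miRNAs read. Their 1578 counts made up 0.00307% of all counts, and their summed level was 27.8, 25.9 and 33.3 TPM with overexpression and 28.6, 30.5 and 40.3 TPM in the controls. These sums overlapped, and the highest was that of control replicate 3. Of the 10, 4 had a count in all 6 libraries (miR-1226-3p, miR-877-5p, miR-1224-5p and miR-1229-3p), 4 in some libraries and 2 in none. Over the whole table, 1366 of 2588 miRNAs had a count in at least 1 library. The pair miR-1226-3p and miR-877-5p held 1484 of the counts (94.0%).

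The most abundant member was miR-1226-3p, with 838 counts and rank 268 of the 1366 miRNAs with a count. It had 119, 112 and 179 counts (14.9, 13.2 and 21.6 TPM) with overexpression and 170, 121 and 137 counts (15.8, 13.9 and 19.2 TPM) in the controls. Overexpression replicate 3 was the highest of the 6 libraries and overexpression replicate 2 the lowest, so that the control range lay inside the overexpression range. The mean was 16.6 ± 4.43 TPM (SD, n = 3) with overexpression and 16.3 ± 2.66 TPM (SD, n = 3) in the controls.

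The 5p product of the ABCF1 intron, miR-877-5p, followed with 646 counts and rank 286. It had 94, 92 and 84 counts (11.8, 10.9 and 10.1 TPM) with overexpression and 119, 124 and 133 counts (11.0, 14.3 and 18.6 TPM) in the controls. Control replicates 2 and 3 lay above all overexpression samples, whereas control replicate 1 fell between them, so that the groups overlapped. The mean was 10.9 ± 0.826 TPM (SD, n = 3) with overexpression and 14.6 ± 3.80 TPM (SD, n = 3) in the controls, or 12.7 TPM over the controls without replicate 3.

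The spread between the 3 samples of a group was set beside that of counting. Counting alone would give miR-877-5p a coefficient of variation of 10.5% with overexpression and 8.93% in the controls, and the observed values were 7.56% and 26.0%. For miR-1226-3p counting would give 8.55% and 8.37%, against 26.7% and 16.3% observed. The observed value exceeded that of counting most in the controls of miR-877-5p and the overexpression samples of miR-1226-3p, with the highest level in control replicate 3 and in overexpression replicate 3, respectively.

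Among the products with few counts, miR-1224-5p from the VWA5B2 intron had 4, 3 and 6 counts with overexpression and 7, 14 and 2 in the controls, 36 in all (0.501, 0.354 and 0.724 TPM against 0.649, 1.61 and 0.280 TPM). The controls held both its highest and its lowest library. The 3p product of the MGAT4B intron, miR-1229-3p, had 4, 2 and 1 counts with overexpression and 7, 1 and 15 in the controls, 30 in all (0.501, 0.236 and 0.121 TPM against 0.649, 0.115 and 2.10 TPM). Control replicate 3 alone supplied 15 of these 30 counts. Its exact Poisson 95% interval of 1.18 to 3.46 TPM lay above that of control replicate 2 (0.00292 to 0.642 TPM) and overlapped that of control replicate 1 (0.261 to 1.34 TPM). These intervals cover counting error only.

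The remaining products were at or near the limit of detection, set at 3 counts, which is 0.278 to 0.420 TPM in a single library and 0.0584 TPM over all 6. The 3p arm of the ABCF1 intron, miR-877-3p, had 0, 7 and 3 counts with overexpression and 3, 3 and 1 in the controls. The 3p arm of the VWA5B2 intron, miR-1224-3p, had 1, 2 and 3 counts with overexpression and 2, 1 and 0 in the controls. Both were thus read in 5 of the 6 libraries, with overlapping groups. A single count was found for miR-1226-5p, in overexpression replicate 2, and a single count for miR-1236-3p, in control replicate 2. Neither arm of miR-1225, the PKD1 intron, had a count, which allows a level of up to 0.0584 TPM over the 6 libraries.

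**Figure D2:**
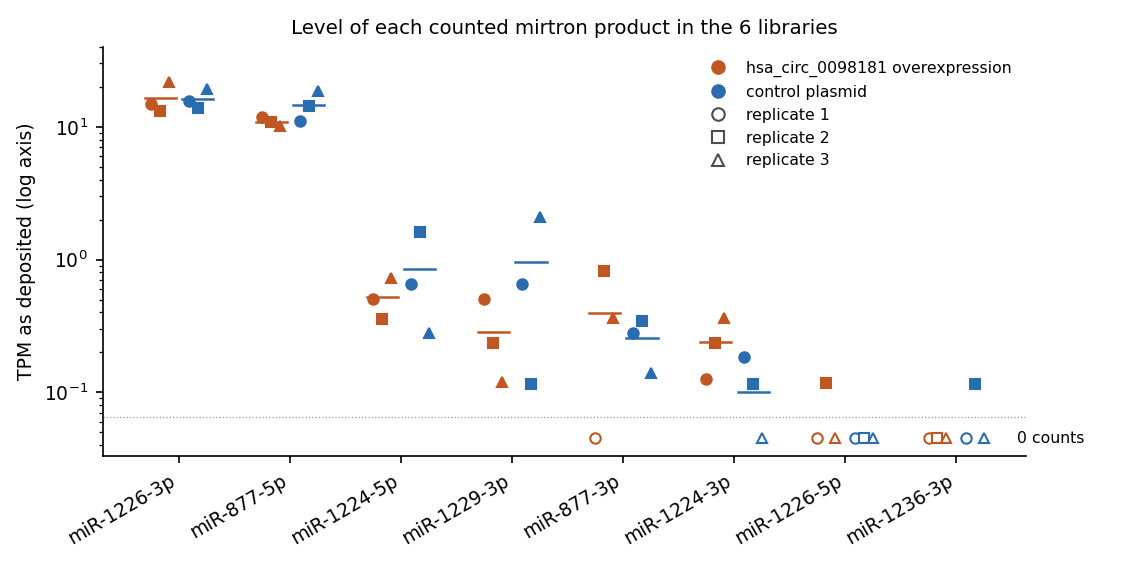
The TPM of the 8 products with a count is plotted on a log axis for each library, with overexpression in orange, controls in blue, a marker shape for each replicate number and a bar at the group mean, while libraries with 0 counts are open markers under the dotted line. The levels of miR-1226-3p and miR-877-5p lie between 10.1 and 21.6 TPM, all other products lie at 2.10 TPM or below, and for miR-1229-3p the single high point is control replicate 3.

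The order of the mean levels over the 6 libraries was miR-1226-3p (16.4 ± 3.27 TPM), miR-877-5p (12.8 ± 3.20 TPM), miR-1224-5p (0.687 ± 0.484 TPM), miR-1229-3p (0.620 ± 0.756 TPM), miR-877-3p (0.325 ± 0.281 TPM) and miR-1224-3p (0.171 ± 0.123 TPM), each with the SD over n = 6. The step from miR-877-5p to miR-1224-5p was present in 6 of 6 libraries. miR-1226-3p exceeded miR-877-5p in 5 of 6 libraries, although the SDs around their means met. The neighbours further down did not separate: miR-1224-5p exceeded miR-1229-3p in 3 libraries, miR-1229-3p exceeded miR-877-3p in 3, and miR-877-3p exceeded miR-1224-3p in 4. Ties are not in these numbers. miR-1224-5p and miR-1229-3p had equal counts in overexpression replicate 1 (4 each) and control replicate 1 (7 each). miR-877-3p and miR-1224-3p had equal counts in overexpression replicate 3 (3 each). These orders compare read levels, and the TPM of the table are not corrected for the lengths of 19 to 26 bases.

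Levels of miRNAs grouped under another route without Drosha, which are not mirtrons, put these values in scale. miR-320a and miR-484 arise from hairpins capped at transcription start. The other miR-320 members were listed with miR-320a as its family, and whether they share that route was not examined. Of the 8 names listed for the miR-320 family and miR-484, 6 were in the table. Their sum was 747 to 1311 TPM in the 6 libraries, 32.3 times the mean sum of the 10 mirtron products. miR-320a alone had 45353 counts (rank 66), and with miR-484 (2806, rank 185) and miR-320c (1560, rank 217) it stood above miR-1226-3p. miR-320b (660 counts) and miR-320d (610 counts) were close to miR-877-5p, and miR-320e, with 6 counts (rank 912), stood below 6 of the mirtron products.

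**Figure D3:**
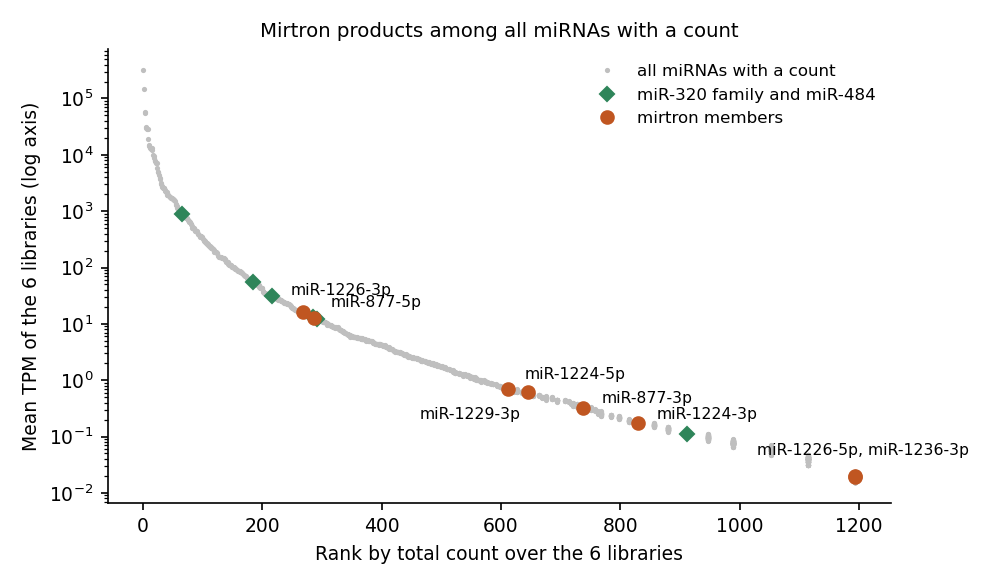
Mean TPM over the 6 libraries (log axis) is plotted against the rank by total count for the 1366 miRNAs with a count, with the mirtron products in orange and the miR-320 family and miR-484 in green. miR-1226-3p (rank 268) and miR-877-5p (rank 286) stand at 16.4 and 12.8 TPM, and the next product, miR-1224-5p, stands at rank 611 and 0.687 TPM.

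In the 4 precursors with 30 or more counts the arms were read unequally, and the favoured side was not the same for all 4. For miR-877 the 5p arm held 646 of 663 counts (97.4%, exact 95% interval 95.9% to 98.5%). For miR-1226 the 3p arm held 838 of 839 counts (99.9%, interval 99.3% to 99.997%), and for miR-1229 it held 30 of 30 (100%, interval 88.4% to 100%), with none for miR-1229-5p. For miR-1224 the 5p arm held 36 of 45 counts (80%, interval 65.4% to 90.4%). The dominant arm was thus the donor side in ABCF1 and VWA5B2, and the acceptor side in DHX30 and MGAT4B. The NELFE intron had 2 counts on miR-1236-5p, both in control replicate 3, and 1 on miR-1236-3p, too few to name a favoured arm. The intervals treat counts as independent and cover counting error only.

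Within libraries, the share of the major arm ran from 92.9% to 100% for miR-877 and from 99.1% to 100% for miR-1226. The 5p share of miR-877 was 96.4% (270 of 280 counts, interval 93.5% to 98.3%) with overexpression and 98.2% (376 of 383, interval 96.3% to 99.3%) in the controls. That of miR-1224 was 80%, 60% and 66.7% with overexpression and 77.8%, 93.3% and 100% in the controls, or 13 of 19 counts (68.4%, interval 43.4% to 87.4%) against 23 of 26 (88.5%, interval 69.8% to 97.6%). The control range of miR-1224 overlapped the overexpression range through control replicate 1.

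The log2 ratio of 5p to 3p counts, with 0.5 added to each, differed between overexpression and control samples by -0.31 for miR-877 and by -1.41 for miR-1224. The former had either sign when 1 library at a time was left out (-1.46 to 0.50), and the latter stayed below 0 (-1.81 to -0.97). With 5 added to each count the difference for miR-1224 was -0.56, so that its size depends on the added count. No precursor reached a mean of 5 counts in both arms, the minimum set for testing the ratio, and no arm ratio was tested.

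Overexpression of hsa_circ_0098181 was not accompanied by a difference in any mirtron product that passed the test. Of the 10 products, 2 passed the filter on low counts and 8 could not be tested with it, beside 552 of all 2588 miRNAs that passed. In edgeR's quasi-likelihood test, adjusted by Benjamini-Hochberg over 552 miRNAs, 0 of the 552 had an adjusted p under 0.05 (0%), members included, and DESeq2 also called 0. At an unadjusted p under 0.05 edgeR gave 50 miRNAs (9.06%) and DESeq2 gave 41, and edgeR's 50 held neither member. Groups did not overlap, in CPM scaled by TMM factors, for 85 of the 552 miRNAs (15.4%), and both members overlapped.

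On that TMM scale miR-877-5p was at 11.8, 11.8 and 10.5 CPM with overexpression and 11.0, 13.9 and 17.1 CPM in the controls, means of 11.4 ± 0.770 and 13.98 ± 3.07 CPM (SD, n = 3 each). The fitted log2 fold change was -0.29 ± 0.18 (SE; 95% interval -0.67 to 0.095), or 0.820-fold with an interval of 0.630 to 1.07, with an adjusted p of 0.598 in edgeR's quasi-likelihood test. The interval includes no change and does not reach a 2-fold decrease. The level in control replicate 3 was 0.46 above the mean of the other controls on the log2 scale, and without that library the log2 fold change was -0.14 (edgeR adjusted p = 0.694).

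For miR-1226-3p the levels were 14.97, 14.4 and 22.3 TMM-scaled CPM with overexpression and 15.7, 13.5 and 17.6 in the controls, means of 17.2 ± 4.43 and 15.6 ± 2.06 (SD, n = 3 each). The fitted log2 fold change was 0.15 ± 0.18 (SE; 95% interval -0.24 to 0.54), or 1.11-fold with an interval of 0.844 to 1.45, with an adjusted p of 0.781 in edgeR's quasi-likelihood test. Overexpression replicate 3 decided its sign: without that library the log2 fold change was -0.078. Without control replicate 3, which lay 0.27 above the other controls on the log2 scale, it was 0.22 (edgeR adjusted p = 0.475).

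The 2 members stood on opposite sides of 0, beside a median log2 fold change of 0.0038 over all 552 miRNAs, of which 271 (49.1%) were below 0. Ranked by p, miR-877-5p was number 117 and miR-1226-3p number 305 of 552. Their biological coefficients of variation, edgeR's estimate of the spread beyond counting, were 12.6% and 13.9%, beside a median of 11.7% over all miRNAs tested. edgeR shares information across miRNAs for this estimate, which draws single values toward the rest, so that nearness to the median is partly built in. When control replicate 3 was left out, 56 of 565 miRNAs had an adjusted p under 0.05 (9.91%), and 0 of the 2 tested members were among them.

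**Figure D4:**
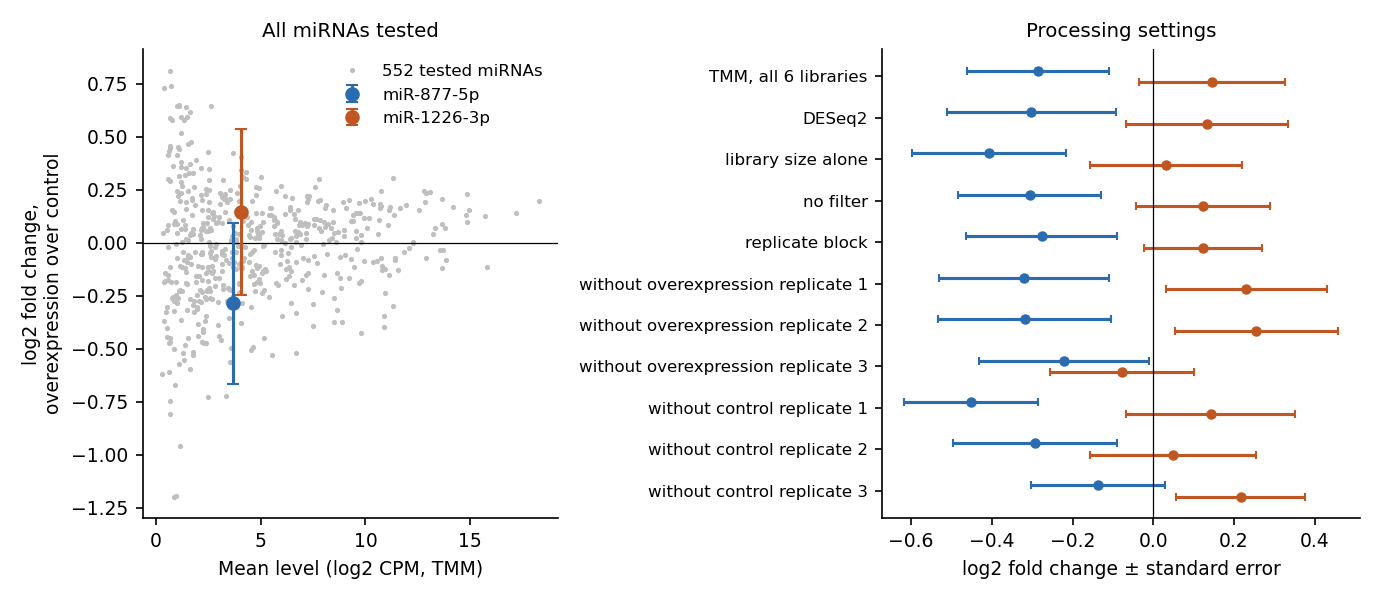
Left, the log2 fold change of overexpression over control is plotted against mean log2 CPM for the 552 tested miRNAs in grey, with miR-877-5p (blue, -0.29) and miR-1226-3p (orange, 0.15) and their 95% intervals. Right, the log2 fold change with its standard error is given for each processing setting: miR-877-5p stays below 0 in all of them, from -0.45 to -0.14, and miR-1226-3p lies from -0.078 to 0.26.

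Without a filter on low counts, 1366 miRNAs were fitted and 8 members could be tested. In edgeR, 6 of the 1366 had an adjusted p under 0.05, and 0 of the 8 members did (smallest 0.775). At an unadjusted p under 0.05 there were 68 of the 1366 miRNAs and 1 of the 8 members. That member was miR-1229-3p, with a log2 fold change of -1.52 ± 0.71 (SE; 95% interval -2.90 to -0.13). That value rested on control replicate 3: without it the log2 fold change was -0.42 (edgeR adjusted p = 0.873), an alternative chosen after the counts were seen, as were those without this library that follow. For miR-1224-5p the log2 fold change was -0.61 ± 0.61 (SE), and -0.97 ± 0.61 without control replicate 3, where this product had 2 counts. For miR-877-3p it was 0.69 ± 0.88 (SE), and 0.45 ± 0.94 without that library. The sign of all 3 was the same with and without it.

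Other mirtrons described early in human cells also had few counts. Of 11 further products, from miR-1227, miR-1228, miR-1233, miR-1234, miR-1237 and miR-1238, 6 had a count and 5 had none, for 50 counts in all. None of the 11 passed the filter. Over the whole table, 1366 of 2588 miRNAs had a count and 552 passed the filter, so that a lack of counts was not particular to mirtrons. The highest, miR-1228-3p, had 4, 4 and 8 counts with overexpression and 5, 2 and 1 in the controls, which overlap, and its log2 fold change without the filter was 1.17 ± 0.75 (SE, edgeR adjusted p = 0.775), and 0.90 ± 0.78 without control replicate 3. As with miR-1226 and miR-1229, more counts came from the 3p arm of miR-1228 (24) than from its 5p arm (6).

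The tested miRNAs whose profile over the 6 libraries was most like that of miR-1226-3p, of 307 with a mean of at least 10 CPM, were miR-365a-3p (Pearson's r 0.98), miR-365b-3p (0.98) and miR-483-3p (0.89), on the scale of log2 TMM-scaled CPM. The 2 miR-365 products have the same mature sequence in RefSeq and cannot be told apart by their reads, so that they count as 1 profile. Their highest levels, 262.7, 273.8 and 926.7 CPM, were in overexpression replicate 3, as for miR-1226-3p, which the choice by likeness favours. The correlations over n = 6 libraries are the highest of 307 and only describe these libraries.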

How the data were processed

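The authors deposited counts of reads assigned to each mature miRNA, not normalised, and TPM values, which equalled the count per 1000000 counts of the same sample within 0.0421%. The submitters' processing notes name Bowtie, TopHat, TopHat2 2.0.9 and hg38. Their roles, the adapter trimming and the treatment of multiply matching reads are not given in the sources used here, and could alter counts of similar miRNAs. Samples were grouped by their titles.

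The counts were analysed with R 4.3.3 and edgeR 4.0.16: filterByExpr (minimum count 10, minimum total 15), TMM factors (0.921 to 1.09) and the two-sided quasi-likelihood test with group as the only term, with Benjamini-Hochberg adjustment and a threshold of 0.05. Alternatives were DESeq2 1.42.0, library size alone, no filter, the replicate number as a block, an added count of 5 in arm ratios, and leaving out each sample. Intervals on counts and shares were exact, at 95% (scipy 1.17.1), and depth was 7144798 to 10786295 counts per sample. No molecular identifiers are named.

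The rule for the members used names alone, but the members and lists were chosen with earlier results of these data known. Named were all members, the other arms of their precursors, a list of further mirtrons, the miR-320 family and miR-484, and the 3 tested miRNAs most correlated with the most abundant member. Positions came from GENCODE release 29 and sequences from RefSeq, both on GRCh38.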

Additional observations from a re-analysis of the deposited data

How the results depend on the processing

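The log2 fold change of miR-877-5p was below 0 in all 10 alternatives (-0.45 to -0.14, adjusted p 0.387 to 0.865 with edgeR or DESeq2). That of miR-1226-3p kept its sign in 9 and was -0.078 without overexpression replicate 3 (range -0.078 to 0.26). No alternative gave a member an adjusted p under 0.05. In edgeR, the unadjusted p of miR-877-5p was 0.018 without control replicate 1 and 0.0494 with library size alone (adjusted p 0.545 and 0.387). Over all miRNAs tested in these settings, 50 of 561 and 70 of 552, respectively, had an unadjusted p under 0.05. With library size alone the median over all miRNAs shifted to -0.11, miR-877-5p was at -0.41 and miR-1226-3p at 0.031. The number of miRNAs called by edgeR was 0 with all samples, 3 with library size alone, 6 with no filter and 0 to 56 when 1 sample was left out, 56 without control replicate 3 alone. Tested members below 0 numbered 1 of 2, 4 of 8 with no filter, and 1 to 2 of 2 when 1 sample was left out.

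The arm ratio difference of miR-1224 was -0.56 with 5 added to each count and -1.81 to -0.97 when 1 sample was left out, and that of miR-877 was -1.46 to 0.50. Arm ratios of miR-1225, miR-1226, miR-1229 and miR-1236 were not run, since an arm had 3 counts or fewer. With the replicate block, miR-877-5p was at -0.28, miR-1226-3p at 0.12 and 0 miRNAs were called. Deviations of same-numbered samples correlated by -0.11, 0.16 and 0.21 over 192 miRNAs. Samples of unlike number were not set beside them, so that these values cannot decide whether the numbers pair the samples. The other 8 products had at most 36 counts each over the 6 libraries.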
